A study of Mus musculus with 18 samples.

Results

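Nuclear IKKα was compared with wild type in back skin whose hair follicles showed little expression of hair shaft and inner root sheath keratins. Bulk RNA was sequenced from 18 FVB mice aged 6 months, 6 each of WT, N-IKKa (exogenous IKKα in keratinocyte nuclei) and C-IKKa (exogenous IKKα in keratinocyte cytoplasm), with 1 library per mouse. Libraries were kept where the mean log2(normalized count + 1) of 6 hair keratins (Krt25, Krt27, Krt28, Krt71, Krt73 and Krt35) was below 8. This kept N-IKKa 7, 10 and 12 and WT 2, 3, 5 and 6, so 7 of the 18 libraries were compared. The genes described are the 17248, of 55357 in the table, that reached 10 normalized counts in 3 or more of these 7 libraries. All mice share the FVB background. The sources used here do not give the promoter that drives the transgenes, the species of the exogenous IKKα or the number of founder lines.

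IKKα, encoded by Chuk, is a catalytic subunit of the IκB kinase complex, which releases NF-kB dimers from their inhibitors in the cytoplasm. IKKα also enters the nucleus, where it takes part in keratinocyte differentiation separately from NF-kB. Back skin holds epidermis, hair follicles with sebaceous glands, dermis, fat and a thin sheet of skeletal muscle, the panniculus carnosus. Hair follicles pass between growth, when shaft and inner root sheath keratins are made, and rest, when those keratins are nearly silent.

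The hair keratins that chose the libraries are given as a description. Their mean log2 value was 5.33, 3.13 and 3.30 in N-IKKa 7, 10 and 12, and 3.22, 3.13, 3.97 and 5.90 in WT 2, 3, 5 and 6. The nearest library above the limit was C-IKKa 18 at 9.03, and the nearest WT library was WT 1 at 12.9. Krt71, a keratin of the inner root sheath, held 11.4 to 209 normalized counts in the 3 N-IKKa libraries and 21.4 to 481 in the 4 WT libraries, against 42283 in WT 1. At the gene limit, Usp44 had a third-highest value of 10.1 and Gm50023 one of 9.68. Of the genes that passed, 10 had no WT library at 10 and 62 had no N-IKKa library at 10, so these passed through 1 group alone.

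The 7 libraries held 11.1 to 14.6 M counted reads, and 1 read was worth 0.880 to 1.20 normalized counts. Ddx3y, a Y-linked gene, exceeded 500 normalized counts in N-IKKa 7 and 12 and in WT 3 and 6, which were read as male. N-IKKa 10, WT 2 and WT 5, with Ddx3y at 0.880, 44.35 and 15.2, were read as female. Xist, also a sex-linked gene, was at 0 in all 7 libraries, so the sexes were read from Ddx3y alone. The epidermal identity of the tissue was plain in both groups. Krt14, a keratin of the basal layer, averaged 10910 ± 298 normalized counts (SD, n = 3) in N-IKKa and 10690 ± 859 (n = 4) in WT. Krt10, of the spinous layer, averaged 43720 ± 1856 and 45510 ± 3843. The C-IKKa libraries 13, 15, 16 and 17 fell below the same keratin limit, and all were read as male. They entered the fit only for its estimate of spread, and their levels are given as a further background.

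Chuk itself was read first. It held 804, 1042 and 1006 normalized counts in N-IKKa 7, 10 and 12, and 901, 851, 958 and 1019 in WT 2, 3, 5 and 6. The ranges overlapped, and the log2 fold change was 0.02 (SE 0.10, 95% limits −0.20 to 0.24, exact two-sided permutation p = 0.914). With 3 libraries against 4 the smallest p this test can give is 0.0571. The limma adjusted p was 0.982. Total Chuk mRNA as counted here was therefore not distinguishable between the groups.

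Cdh9 and Sphkap rose in N-IKKa skin. These were the 2 genes of 17248 with an adjusted p below 0.05, which is 0.0116% of the genes tested (limma, Benjamini-Hochberg adjustment), and both were higher. No gene was called lower by limma or edgeR, with 744 lower (4.31%) and 418 higher (2.42%) at an unadjusted p below 0.05, together 6.74%. DESeq2 on the recovered reads called 6 genes higher (0.0348%) and 44 lower (0.255%). For 6022 of the 17248 genes, Cdh9 among them, DESeq2 gave no adjusted p and so could not call them. Wherever DESeq2 is said here to call 0 members, any such genes count as not called. The promoters of the 2 called genes are shown because the results turn on them. Each is the 250 bases before the transcription start from RefSeq (GRCm38.p6, 5′ to 3′ on the gene's strand), and capitals mark matches to the E-box CANNTG.
Cdh9, chr15:16728665-16728914, plus strand: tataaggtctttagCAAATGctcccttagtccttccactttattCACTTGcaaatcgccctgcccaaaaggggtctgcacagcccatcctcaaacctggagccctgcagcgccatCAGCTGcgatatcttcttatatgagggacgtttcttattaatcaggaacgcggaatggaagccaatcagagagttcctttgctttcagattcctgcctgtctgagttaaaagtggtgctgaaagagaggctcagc
Sphkap, chr1:83408201-83408450, minus strand: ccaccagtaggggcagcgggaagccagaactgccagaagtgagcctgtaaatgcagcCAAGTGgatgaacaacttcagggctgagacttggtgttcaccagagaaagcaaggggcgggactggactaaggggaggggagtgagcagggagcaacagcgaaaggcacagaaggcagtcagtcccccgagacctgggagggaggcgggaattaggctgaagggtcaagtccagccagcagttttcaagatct

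Both strands were searched for 4 motifs, which did not overlap each other here. The E-box matched 3 times before Cdh9 and 1 time before Sphkap, and 66.2% of 32851 RefSeq promoters of that length hold one. A loose NF-kB-like pattern (GGG and CC with any 5 bases between, in 45.8% of promoters), the AP-1 pattern TGANTCA (6.75%) and the TATA pattern TATAAA (12.4%) matched neither window. A match is a match of letters and not a measured binding site.

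Cdh9 (ENSMUSG00000025370.8) encodes cadherin 9, a calcium-dependent adhesion protein of the type II classical cadherins. It held 168, 173 and 147 normalized counts in N-IKKa 7, 10 and 12. The WT libraries 2, 3, 5 and 6 held 20.2, 8.34, 19.9 and 19.2, and the 4 C-IKKa libraries 10.3 to 17.0. Every N-IKKa library thus lay above every WT library, in both sexes. Each also lay above these 4 C-IKKa libraries, all read as male. The means were 162 ± 13.8 (SD, n = 3) and 16.9 ± 5.72 (n = 4), a log2 fold change of 3.26 (SE 0.33, 95% limits 2.54 to 3.98, limma adjusted p = 0.00285), or 9.59-fold. Cdh9 was proposed for this comparison with results of these libraries known, so its value is a description of size rather than a fresh finding. The call was lost without N-IKKa 7 (log2 fold change 3.24, adjusted p = 0.0581) and in male libraries alone (3.52, adjusted p = 0.0966).

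Sphkap (ENSMUSG00000026163.18) encodes an A-kinase anchoring protein that tethers protein kinase A and binds sphingosine kinase. It held 265, 332 and 265 normalized counts in N-IKKa 7, 10 and 12, and 76.6, 65.5, 118 and 77.0 in WT 2, 3, 5 and 6. The 4 C-IKKa libraries held 57.8 to 92.2. The lowest N-IKKa library was again above the highest WT library, WT 5. The means were 287 ± 38.7 (SD, n = 3) and 84.3 ± 23.1 (n = 4), a log2 fold change of 1.78 (SE 0.22, 95% limits 1.31 to 2.26, limma adjusted p = 0.0138), or 3.44-fold. The Sphkap call was lost with the 7 libraries fitted alone (adjusted p = 0.0665), in male libraries alone (adjusted p = 0.0966), and without WT 2, 3 or 6 or N-IKKa 7, 10 or 12 (log2 fold change 1.68 to 1.84, adjusted p = 0.0581 to 0.172).

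**Figure D1:**
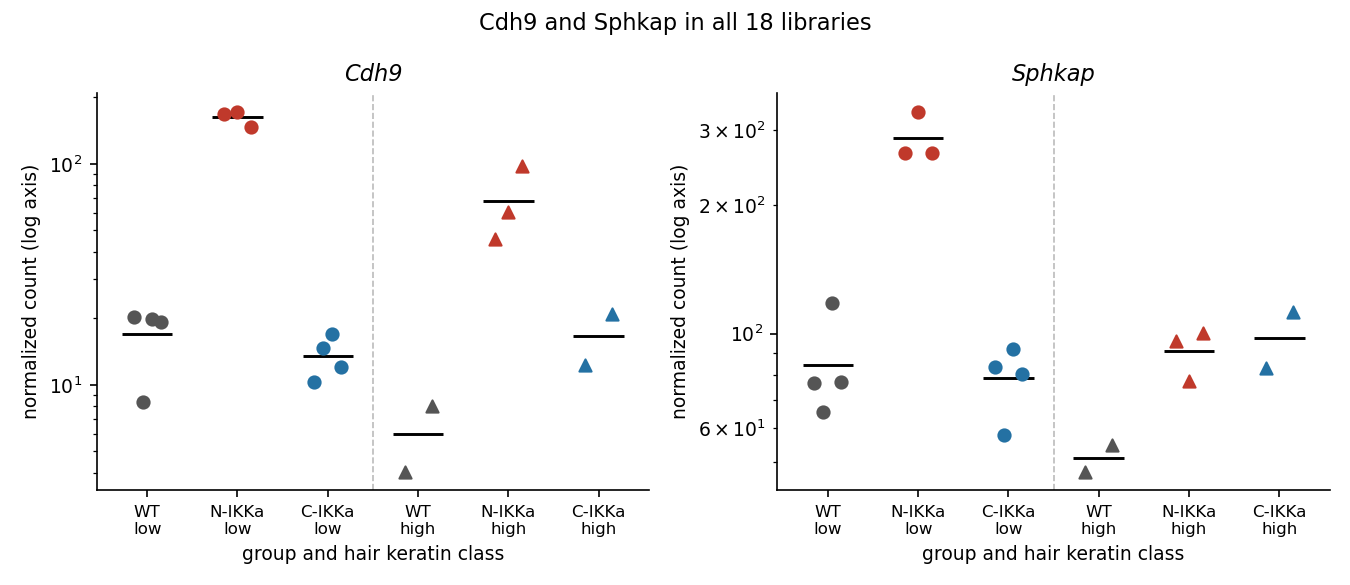
Normalized counts (log axis) of Cdh9 and Sphkap in all 18 libraries, by group and by hair keratin class (low, below 8; high, above 8); points are libraries and bars are group means. Among the low libraries, N-IKKa lies at 147 to 173 for Cdh9 and 265 to 332 for Sphkap, above all WT libraries.

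The libraries with high hair keratins did not enter the fit above and hold other mice of the same groups, though Cdh9 was proposed with their values known too: N-IKKa 8, 9 and 11 and WT 1 and 4, all read as female. Cdh9 held 45.7, 60.6 and 98.1 normalized counts in the N-IKKa libraries and 4.03 and 7.99 in WT 1 and 4. Its log2 fold change there was 3.29 (SE 0.43, limma adjusted p = 0.0134), and the difference between the low and the high libraries was −0.03 (SE 0.57, unadjusted p = 0.96). The Cdh9 level was lower in the high libraries than in the low ones in both groups by value. Sphkap held 96.0, 77.6 and 100.2 in N-IKKa 8, 9 and 11 against 47.4 and 54.8 in WT 1 and 4. Its log2 fold change there was 0.82 (SE 0.26, unadjusted p = 0.00598, limma adjusted p = 0.328), without overlap between the groups, as for 11.6% of all genes in that comparison (9.8% were lower without overlap). The difference from the low libraries was 0.96 (SE 0.34, unadjusted p = 0.0115, adjusted p = 0.567), so the smaller fold was not called different. Sphkap in the C-IKKa libraries above the keratin limit, 14 and 18, held 83.2 and 112, so the high N-IKKa libraries did not stand above C-IKKa. Without N-IKKa 9 the high-library adjusted p of Cdh9 was 0.0787.

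The chromosomal neighbours of the called genes were read from the RefSeq gene order of GRCm38.p6. Cdh6, the cadherin gene on one side of Cdh9 on chromosome 15, averaged 114 ± 35.4 normalized counts in N-IKKa and 125 ± 10.3 in WT (log2 fold change −0.17, limma adjusted p = 0.946). Cdh10, on the other side, was below the filter, at 5.32 ± 0.207 and 15.1 ± 10.6. Drosha, which encodes the nuclease that cuts primary microRNAs, gave 0.22 (adjusted p = 0.76). Beside Sphkap on chromosome 1, Pid1 gave 0.09 (adjusted p = 0.947), Trip12 −0.00 (adjusted p = 0.998) and the chemokine gene Ccl20 −0.04 (adjusted p = 0.991). Daw1 and Dner were below the filter, with means of 2.68 or less in both groups. Of these neighbours, none that passed the filter was called by limma, edgeR or DESeq2. Cdh10, Daw1 and Dner were not tested.

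Of 19 classical cadherins, 13 passed the filter and 1, Cdh9, was called. Cdh1, the E-cadherin that joins keratinocytes, gave −0.07 (SE 0.08), and Cdh3, the P-cadherin of basal and hair matrix cells, 0.04 (SE 0.15). Cdh11, a fibroblast cadherin, gave 0.64 (SE 0.38), and Cdh15, the cadherin of muscle cells, −0.71 (SE 0.33, unadjusted p = 0.0498). The list median was 0.06, against 0.02 for all genes tested.

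**Figure D2:**
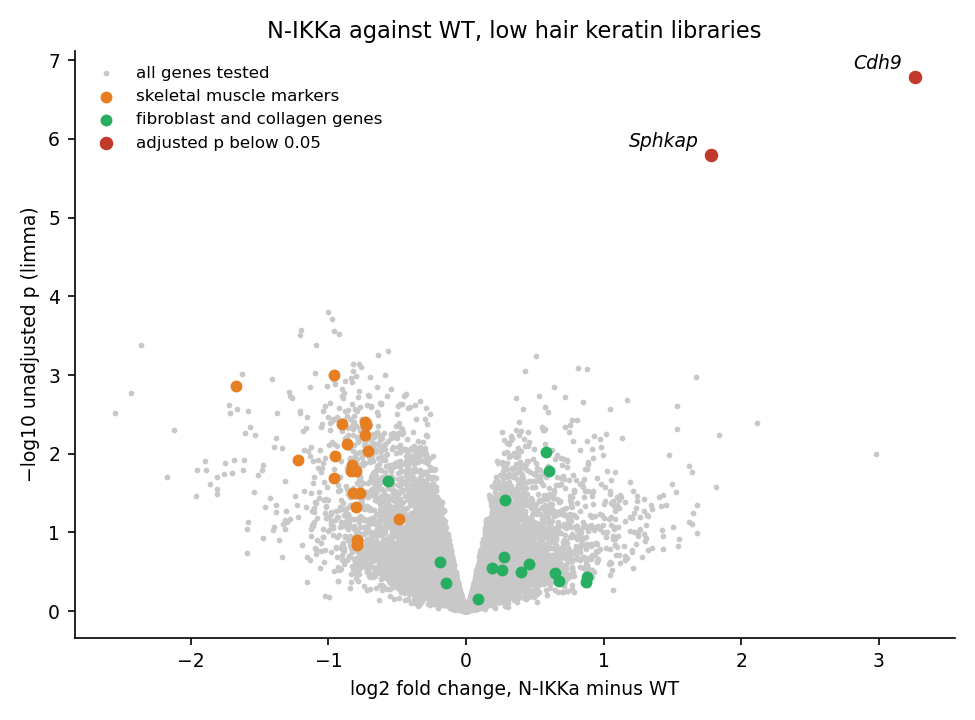
Log2 fold change (N-IKKa minus WT, horizontal axis) and −log10 of the unadjusted limma p (vertical axis) for 17248 genes in the low hair keratin libraries. Cdh9 and Sphkap stand at the upper right, and the 20 skeletal muscle markers all lie to the left of 0.

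Among genes that were not called, 13 on the higher side were picked by the smallest p of those at least 1.5-fold apart without overlap. Vwa2, a protein of epithelial basement membranes, held 911, 841 and 854 normalized counts in N-IKKa 7, 10 and 12 and 380.0 to 706 in WT (log2 fold change 0.81, SE 0.19, limma adjusted p = 0.52). Fmod, fibromodulin, a proteoglycan that binds collagen fibrils, held 510 to 677 against 319 to 383 (0.64, SE 0.16). Angptl4, a secreted inhibitor of lipoprotein lipase, held 220.5 to 565 against 132 to 184 (1.05, SE 0.29, and 0.68 without N-IKKa 10). Bnc1, basonuclin 1, a zinc finger protein of basal keratinocytes, held 425 to 591 against 214 to 412 (0.72, SE 0.19). Pappa, a protease that frees insulin-like growth factors from their binding protein, gave 0.60 (SE 0.16), and Col12a1, a collagen at fibril surfaces, 0.75 (SE 0.22, and 0.39 without N-IKKa 10). The other genes picked by the same rule were B4galt2, Chaf1b, Rpp21, Susd5, Spire2, Acd and Hoxb3os (0.72 to 0.93). Groups did not overlap for these genes because the rule asked for it; 2.96% of all tested genes were higher in N-IKKa without overlap, and 3.06% were at least 1.5-fold higher. By DESeq2, Vwa2 (adjusted p = 0.0335), Angptl4 (0.0308) and Fmod (0.0455) were called.

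The same rule picked 15 genes on the lower side, none of them a member of the skeletal muscle list. Frzb, a secreted Wnt antagonist, held 135, 141 and 163 normalized counts in N-IKKa 7, 10 and 12, and 330, 286, 314 and 248 in WT 2, 3, 5 and 6 (log2 fold change −1.001, SE 0.19, limma adjusted p = 0.52). Apobec2, a cytidine deaminase family member of striated muscle, held 1483 to 2296 against 2847 to 4201 (−0.97, SE 0.19). Xirp2, an actin-binding protein of muscle attachment sites, held 4709 to 5399 against 7605 to 12597 (−1.09, SE 0.23). Lincmd1, a muscle long noncoding RNA, held 76.6, 58.1 and 45.1 against 515, 544, 176.5 and 177 (−2.37, SE 0.51). Bves, a membrane protein of striated muscle, gave −1.20 (SE 0.25), and Ldb3, a Z-disc protein, −0.82 (SE 0.19). Klhl30, Smtnl1, Shisa4, Ank1, Dusp10, Pkia, Amot and Dnajb5 lay between −1.21 and −0.77. For these 14 genes the limma adjusted p was 0.52, and DESeq2 called all 14 with adjusted p between 0.00326 and 0.0327. Of all tested genes, 4.2% were lower in N-IKKa without overlap, and 4.23% were at least 1.5-fold lower.

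The skeletal muscle markers, a list chosen with earlier results of these data known, showed the same side throughout. All 20 passed the filter, and all 20 were lower in N-IKKa by value. For 14 of 20 the 3 N-IKKa and 4 WT libraries did not overlap, against 4.2% of all genes tested lower without overlap. Their median log2 fold change was −0.81, against 0.02 for all genes tested, of which 53.4% were higher and 46.6% lower by value. Limma and edgeR called 0 of 20. At an unadjusted limma p below 0.05, 17 were lower, as were 4.31% of all genes tested. DESeq2 called 2, Myl1 and Acta1. The muscle genes Apobec2, Xirp2, Bves, Ldb3 and Lincmd1, which are not on the list, were also among its 44 lower calls. The list mean was 11.15, 11.21 and 11.26 on the log2 scale in N-IKKa 7, 10 and 12, and 11.91, 12.39, 12.30 and 11.68 in WT 2, 3, 5 and 6. The N-IKKa libraries were nearly alike and all lay below the lowest WT library. Summed over the list, N-IKKa held 129800 to 161800 normalized counts and WT 210400 to 355400.

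Within the list, Myh2, the fast oxidative (IIa) myosin heavy chain, held 502, 607 and 232 normalized counts in N-IKKa 7, 10 and 12. It held 1205, 1849, 1661 and 812 in WT 2, 3, 5 and 6 (log2 fold change −1.67, SE 0.42, limma adjusted p = 0.52). Myl1, a light chain of fast muscle myosin, averaged 2462 in N-IKKa and 4912 in WT (−0.96, SE 0.23). The list's smallest difference was that of Tnni2, the fast troponin I (−0.49, SE 0.25). The C-IKKa libraries spanned both groups, with list means of 11.65, 12.07, 10.99 and 11.14 in C-IKKa 13, 15, 16 and 17. In bulk skin, fewer muscle cells in a sample and less RNA per cell cannot be told apart, and the depth of the sampled tissue was not recorded in the sources used here.

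In the high hair keratin libraries the muscle list did not show this side. Its mean was 10.26, 10.80 and 10.35 in N-IKKa 8, 9 and 11, and 11.28 and 9.10 in WT 1 and 4, so WT 1 lay above and WT 4 below all 3 N-IKKa libraries. The list median there was 0.34, with 18 of 20 members higher by value, as were 51.7% of all genes. Whether the difference between N-IKKa and WT depends on the hair keratin class was tested per gene over all 18 libraries. Limma called 0 of 17248 genes, with 1446 (8.38%) at an unadjusted p below 0.05; edgeR and DESeq2 were not run for this difference.

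**Figure D3:**
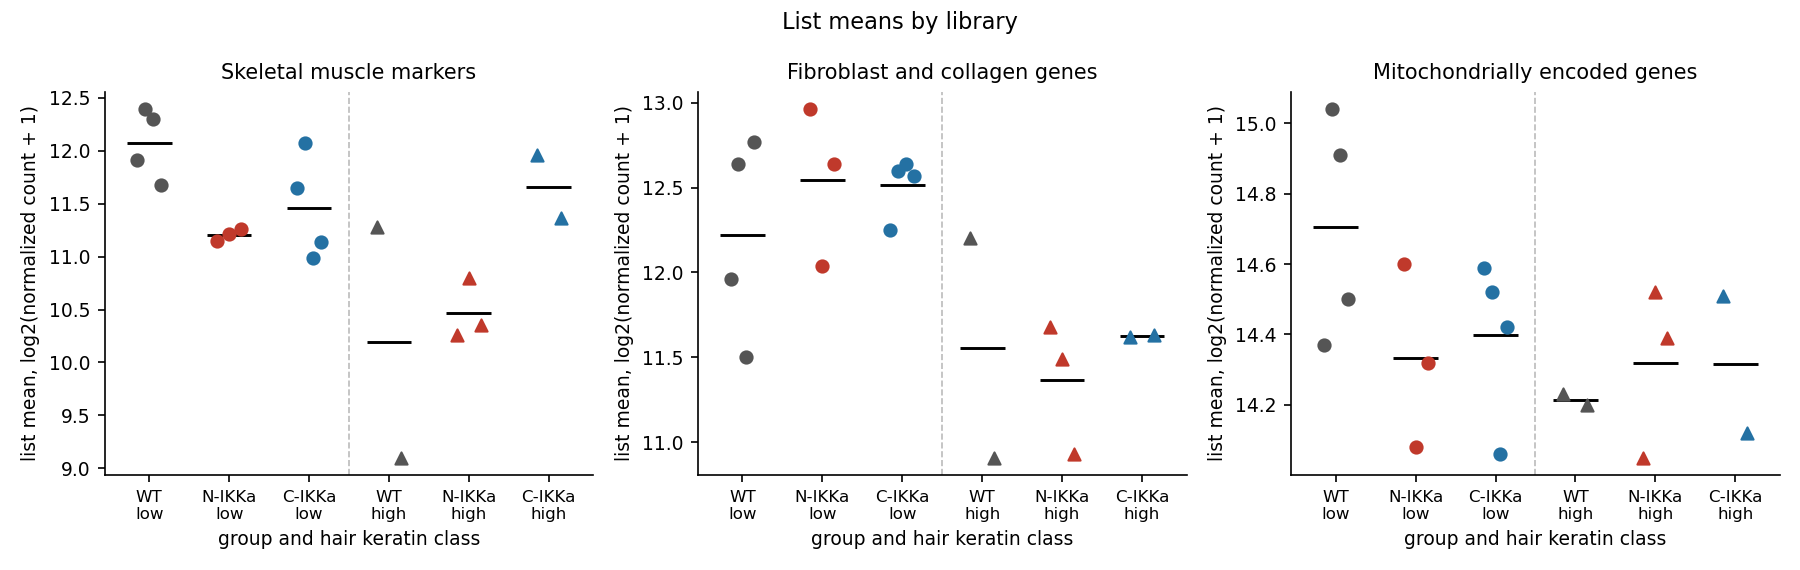
Mean log2(normalized count + 1) of 3 gene lists in each library, by group and hair keratin class; points are libraries and bars are group means. For skeletal muscle the 3 low N-IKKa libraries (11.15 to 11.26) lie below the 4 low WT libraries (11.68 to 12.39), while the fibroblast and mitochondrial lists overlap.

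Because the muscle list moved with genotype in these 7 libraries, its mean was also entered as a covariate. The log2 fold change was then 2.89 for Cdh9 (limma adjusted p = 0.767) and 1.54 for Sphkap (adjusted p = 0.9995), and limma called 0 genes, with 415 at an unadjusted p below 0.05. N-IKKa and WT do not overlap in this covariate, so within these groups the 2 cannot be told apart. Smooth muscle markers went both ways, with a median of 0.08, 6 of 10 higher by value and 0 called by limma, edgeR or DESeq2. At an unadjusted p below 0.05, Actg2, a smooth muscle actin, was higher by value (0.60, SE 0.24). Lmod1 (−0.46, SE 0.20) and Des, the desmin of smooth and skeletal muscle (−0.73, SE 0.22), were lower without overlap, as were 4.2% of all genes tested.

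Mitochondrially encoded genes, which are abundant in muscle, were lower by value in 10 of 10 tested members (median −0.32), against 46.6% of all genes. Limma, edgeR and DESeq2 called 0. At an unadjusted limma p below 0.05, 3 were lower, against 4.31% of all genes, among them mt-Co2 (−0.67, SE 0.25) and mt-Atp6 (−0.57, SE 0.23). The list mean was 14.60, 14.08 and 14.32 in N-IKKa 7, 10 and 12 and 14.37, 15.04, 14.91 and 14.50 in WT 2, 3, 5 and 6, so the groups overlapped. With the muscle covariate the median was 0.15, and it was −0.49 without N-IKKa 7, −0.20 without WT 3 and −0.18 without N-IKKa 10.

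The IKK and NF-kB genes come next, since IKKα is part of this pathway. All 24 pathway components passed the filter, and limma, edgeR and DESeq2 called 0, with 0 at an unadjusted p below 0.05. Their median was 0.03 and they ran from −0.15 to 0.41, the highest being Bcl3, a nuclear IκB protein (SE 0.20). Nfkb1, the p105 precursor of p50, gave 0.17 (SE 0.09). Of 24 NF-kB target genes, 16 passed, 11 were higher and 5 lower by value, and the median was 0.11. Limma, edgeR and DESeq2 called 0, with 1 at an unadjusted p below 0.05, Sod2, the mitochondrial superoxide dismutase (−0.39, SE 0.15). Icam1, a leukocyte adhesion molecule, averaged 561 ± 18.8 normalized counts in N-IKKa and 441 ± 11.8 in WT (log2 fold change 0.35, SE 0.20, limma adjusted p = 0.80), against 1123 in the C-IKKa libraries. The NF-kB inhibitor gene Nfkbia averaged 1065 ± 120.5 and 1007 ± 280, against 2174 in C-IKKa.

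Keratinocyte lists lay close to 0. Basal keratinocyte genes had a median of 0.04 (11 of 14 higher), with Itgb4, a hemidesmosome integrin, at 0.24 (SE 0.11) and Lamb3, a chain of laminin 332, at 0.21 (SE 0.10). Spinous genes had a median of −0.05 (4 of 11 higher). Among them Krt2, a keratin of the upper spinous and granular layers, gave 0.83 (SE 0.39) and Dsc1, a desmosomal cadherin, −0.15 (SE 0.10). Of 31 cornified envelope genes 25 passed, 7 were higher and 18 lower by value, and the median was −0.12, with Lce1g at −1.24 (SE 0.53) and the transglutaminase gene Tgm3 at 0.75 (SE 0.39). Lce1g had few counts, 2.77 to 10.3 in N-IKKa and 9.62 to 21.0 in WT, and the groups overlapped. Stress-induced keratinocyte genes had a median of 0.16 (7 of 9 higher), with Krt6a at 0.57 (SE 0.28) and Krt17 at 0.20 (SE 0.14). In these 4 lists limma, edgeR and DESeq2 called 0 members. The 1 member at an unadjusted limma p below 0.05 was Lce1g, against 6.74% of all genes tested.

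Hair follicle genes outside the choosing keratins were also examined. Of 16 hair follicle stem cell genes 14 were higher by value (median 0.21), against 53.4% of all genes tested. Sox9, a transcription factor of bulge stem cells and the outer root sheath, averaged 3126 in N-IKKa and 2182 in WT without overlap (log2 fold change 0.53, SE 0.14, limma adjusted p = 0.52), and Dkk3, a secreted protein of the Dickkopf family, gave 0.42 (SE 0.18). In the high libraries Sox9 gave −0.36 (SE 0.23) and the list median was −0.10. All 13 tested Wnt target genes were higher by value (median 0.23), against the same 53.4% of all genes. Lef1, the Wnt transcription factor, gave 0.70 (SE 0.26) and the cyclin gene Ccnd1 0.30 (SE 0.10). Dermal papilla and growth signals had a median of 0.09 (9 of 16 higher), with the Wnt agonist gene Rspo1 at 0.43 (SE 0.22) and Msx2, a hair matrix homeobox gene, at 0.28 (SE 0.17). Hair shaft and inner root sheath genes, whose level the choice of libraries limits, had a median of 0.02 over 10 members, with Hoxc13 at 0.58 (SE 0.22) and Padi3 at 1.05 (SE 1.08). Padi3 held 15.7, 11.4 and 7.18 normalized counts in N-IKKa 7, 10 and 12, and 0, 1.19, 8.18 and 54.1 in WT 2, 3, 5 and 6. Limma, edgeR and DESeq2 called 0 members of these 4 lists. At an unadjusted limma p below 0.05, 6 were higher and 0 lower, against 2.42% and 4.31% of all genes tested.

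**Figure D4:**
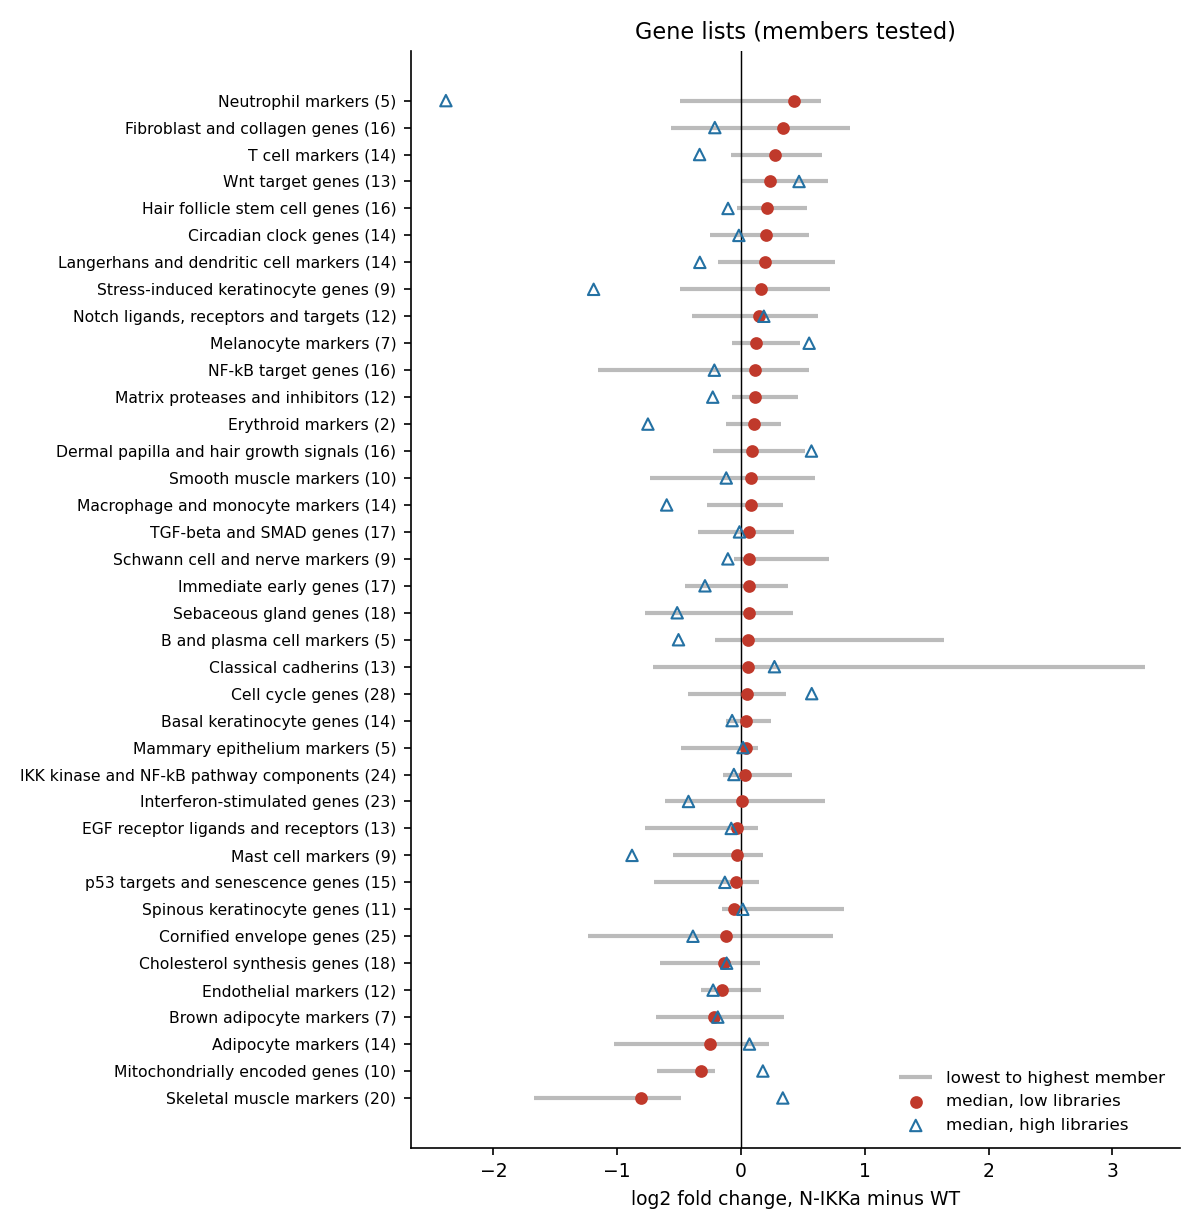
Median log2 fold change (N-IKKa minus WT) of each gene list in the low libraries (filled circles, with the lowest to highest member as a bar) and in the high libraries (open triangles); the number of members tested is in parentheses. Skeletal muscle has the lowest median in the low libraries (−0.81) and lies at 0.34 in the high ones.

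Dermal and glandular lists differed little. Fibroblast and collagen genes had a median of 0.34, with 13 of 16 higher by value, against 53.4% of all genes tested. That median was 0.12 without WT 5, 0.16 without N-IKKa 7, 0.51 without WT 3, 0.52 without N-IKKa 10 and 0.11 in male libraries. Col6a1 and Col6a2, chains of collagen VI, gave 0.60 (SE 0.22) and 0.58 (SE 0.19), while Col1a1 averaged 85370 ± 68230 (SD, n = 3) and 60120 ± 62790 (n = 4), a spread wider than its difference. The list mean was 12.96, 12.04 and 12.64 in N-IKKa 7, 10 and 12 and 11.96, 12.64, 11.50 and 12.77 in WT 2, 3, 5 and 6, so males (N-IKKa 7 and 12, WT 3 and 6) were higher than females in both groups. Adipocyte markers had a median of −0.25 (12 of 14 lower, against 46.6% of all genes). Slc2a4, the insulin-regulated glucose transporter also made in muscle, gave −0.67 (SE 0.21). The fatty acid synthase gene Fasn gave −1.03 (SE 0.40, and −0.57 without WT 5). The adipocyte median was −0.47 without N-IKKa 7 and 0.06 without N-IKKa 12. Brown adipocyte markers had a median of −0.22 over 7, with Cidea at 0.35 (SE 0.17) and Cox8b at −0.68 (SE 0.34). Ucp1 was below the filter. Cidea and Elovl3 are also on the sebaceous gland list and count in both. Sebaceous gland genes had a median of 0.06 (9 of 18 higher), with the desaturase gene Fads2 at −0.54 (SE 0.20) and Far2, a fatty acyl-CoA reductase, at 0.39 (SE 0.15). Endothelial markers had a median of −0.15, with the receptor genes Tek at −0.29 (SE 0.17) and Flt1 at −0.28 (SE 0.17). Schwann cell and nerve markers had a median of 0.06, with the neurotrophin receptor gene Ngfr at 0.71 (SE 0.27, but 0.23 without N-IKKa 10, which alone held 957.6 normalized counts) and Gfra3 at 0.35 (SE 0.31). Limma, edgeR and DESeq2 called 0 members of these 6 lists. At an unadjusted limma p below 0.05, 7 were higher and 4 lower, against 2.42% and 4.31% of all genes tested. Melanocyte markers had a median of 0.12 over 7, and mammary epithelium markers 0.04 over 5, with Csn2, Csn3, Csn1s1 and Wap listed at 0 in all 7 libraries.

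Immune cell markers were mostly higher by value in the low N-IKKa libraries, and the list medians were negative in the high libraries. There the median was −0.33 for T cell, −0.60 for macrophage and monocyte and −0.50 for B and plasma cell markers. It was −0.88 for mast cell and −2.38 for neutrophil markers. The 2 WT libraries there differed widely. The neutrophil list mean was 8.64 in WT 1 and 4.90 in WT 4, against 4.79, 3.70 and 4.34 in N-IKKa 8, 9 and 11. For macrophage and monocyte markers it was 9.99 and 8.44, against 8.78, 8.65 and 8.19. The mast cell mean was 8.14 and 6.21, against 6.27, 5.99 and 6.33. For B and plasma cell markers WT 1, at 6.07, lay below all N-IKKa libraries. Langerhans and dendritic cell markers had a median of 0.19 (11 of 14 higher, 4 of them without overlap, against 53.4% and 2.96% of all genes), with Xcr1 and Clec9a, receptors of cross-presenting dendritic cells, at 0.73 (SE 0.25) and 0.54 (SE 0.20). In the high libraries the same genes gave −1.25 (SE 0.64) and −0.62 (SE 0.31), with overlap between the groups. Xcr1 held 47.5, 3.79 and 34.4 normalized counts in N-IKKa 8, 9 and 11 and 47.4 and 46.8 in WT 1 and 4. The list median in the high libraries was −0.33 with 3 of 14 higher. T cell markers had a median of 0.27 (13 of 14 higher), with Trdc, the constant region of the delta chain, at 0.65 (SE 0.46). Thy1, which is also on the fibroblast and collagen list and counts in both, gave 0.28 (SE 0.12). Igha and Jchain, the heavy chain and joining chain of secreted IgA, averaged 374 and 243 normalized counts in N-IKKa against 143 and 95.2 in WT (1.64, SE 0.61, and 1.52, SE 0.63), and 823 and 496 in C-IKKa. For macrophage and monocyte markers the median was 0.08, with Cd68 at 0.27 (SE 0.22) and Ms4a7 at −0.27 (SE 0.28). Mast cell markers had a median of −0.04, with the chymase gene Cma1 at −0.37 (SE 0.41) and Mcpt4 at −0.21 (SE 0.35). Neutrophil markers had a median of 0.43 over 5 members, with Il1b at 0.55 (SE 0.35) and Csf3r at 0.43 (SE 0.39). Limma, edgeR and DESeq2 called 0 members of the 6 immune lists (the 5 tested B and plasma cell genes had the median 0.06). At an unadjusted limma p below 0.05, 6 were higher and 0 lower, against 2.42% and 4.31% of all genes tested.

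Signalling and metabolic lists gave no call by limma, edgeR or DESeq2 either. At an unadjusted limma p below 0.05, 3 members were higher and 6 lower, against 2.42% and 4.31% of all genes tested. Among TGF-beta and SMAD genes (median 0.07), the ligand gene Tgfb1 averaged 658 in N-IKKa and 518 in WT without overlap (log2 fold change 0.35, SE 0.12), and the inhibitory Smad6 gave 0.43 (SE 0.21). EGF receptor ligands and receptors had a median of −0.03, with Egf at −0.53 (SE 0.21) and Epgn, epigen, at −0.78 (SE 0.36). Notch genes had a median of 0.14, with the receptor gene Notch1 at 0.25 (SE 0.11) and its ligand gene Jag2 at 0.17 (SE 0.10). Cell cycle genes had a median of 0.05 (17 of 28 higher), with E2f1 at 0.37 (SE 0.18) and the mitotic kinase gene Aurka at −0.43 (SE 0.22). The p53 and senescence genes had a median of −0.04, with Ccng1, a p53 target, at −0.71 (SE 0.23) and Cdkn2b at −0.16 (SE 0.15). Cholesterol synthesis genes had a median of −0.13, with Lss at −0.66 (SE 0.25) and Insig1, a sterol sensor, at −0.54 (SE 0.20). Interferon-stimulated genes had a median of 0.00, with Irf1 at 0.29 (SE 0.17) and Rsad2 at −0.61 (SE 0.39). Immediate early genes had a median of 0.06, with Junb at 0.38 (SE 0.13) and Zfp36 at 0.30 (SE 0.15). Circadian clock genes had a median of 0.20, with Nr1d1 at 0.29 (SE 0.15) and Hlf at 0.35 (SE 0.22), and matrix proteases and inhibitors one of 0.11, with Mmp9 at 0.29 (SE 0.19).

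The 30 genes named by size or p were finally set beside their values in the high libraries, which come from other mice. Of the 15 higher genes, Cdh9, Sphkap and Chaf1b (0.98, SE 0.25, unadjusted p = 0.00124), which encodes a subunit of chromatin assembly factor 1, kept a positive value there with an unadjusted p below 0.05, as 10.1% of all genes had in either direction. Of the 15 lower genes none did so on the lower side, and the largest negative value was that of Lincmd1 (−1.37, SE 0.97), where WT 1 held 680.4 and WT 4 23.97 normalized counts. In the high libraries limma called 2 genes (0.0116%), Cdh9 and Bach2.

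**Figure D5:**
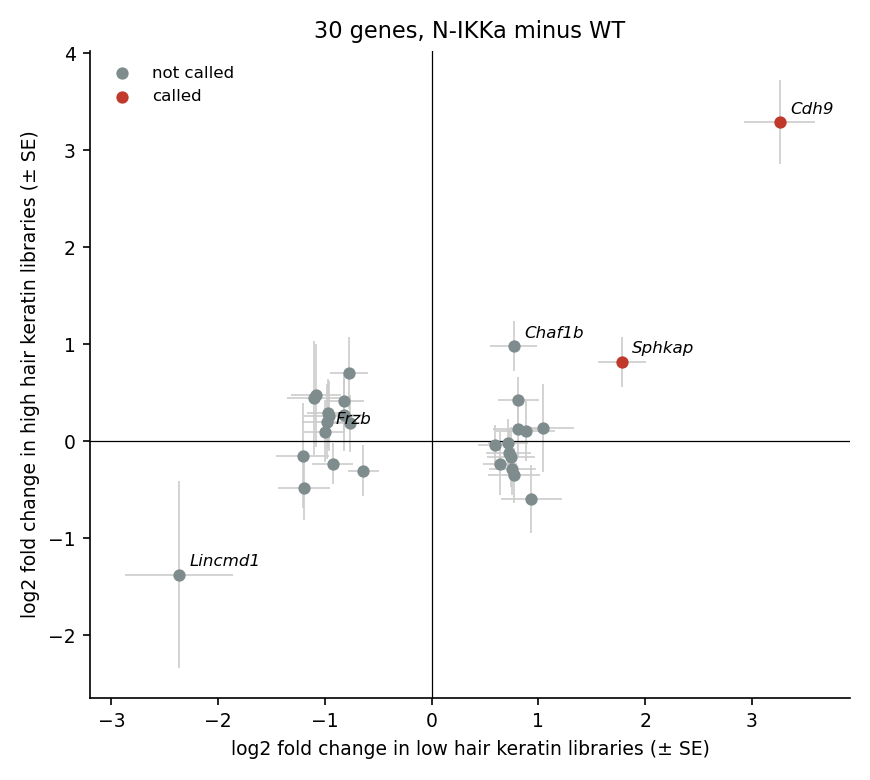
Log2 fold change (N-IKKa minus WT, ± SE) of the 30 named genes in the low (horizontal) and the high hair keratin libraries (vertical). Cdh9 lies near 3.26 and 3.29 and Sphkap near 1.78 and 0.82, while most of the other genes lie near 0 on the vertical axis.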

How the data were processed

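Reads were counted with featureCounts on GRCm39, per the submitters' processing notes; the sources used here do not name the aligner, annotation, strand setting or scaling tool. The values deposited are a signal (normalized counts): in each library 100% of values above 0 equalled a whole number of reads times 1 factor (within 0.001 reads, a tolerance that widens in proportion for higher counts), so the authors had divided gene counts by 1 factor per library. Groups came from the genotype labels. Values were analysed as log2(normalized count + 1) with limma 3.58.1 (trend, two-sided, Benjamini-Hochberg) in R 4.3.3. The fit held 11 libraries (3 N-IKKa, 4 WT, 4 C-IKKa) with 8 residual degrees of freedom, and a second fit held all 18 with a mean per group and hair keratin class. Fold changes understate low genes.

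Members and lists were chosen with earlier results of these data known. Named genes were up to 15 per direction: called genes first, then those with the smallest p among genes at least 1.5-fold apart without overlap, with a mean of at least 50 (Cdh9 excepted), leaving out numbered gene models, receptor segments and sex-linked genes. Then came Chuk and, of each list, up to 4 called members or the 2 with the smallest p; other genes named were chosen after their values were seen. Of the 15 lower genes the rule picked, 1 is not reported here by name. The muscle and hair keratin covariates, scalings and left-out libraries were alternatives, as were edgeR 4.0.16 and DESeq2 1.42.0 on recovered reads. By the 6 keratins 11 libraries were low, not 12 as first listed. The code was tested on simulated data.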

Additional observations from a re-analysis of the deposited data

Results flagged for a closer look

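In 74 groups of 4 libraries tested, 5 had 1 library far from the other 3, where chance flags about 1 in 20. Cdh9 held 8.34 normalized counts in WT 3, against 19.2 to 20.2 in the other WT libraries. Fmod held 319 in WT 5 against 375 to 383, and Bves 394 in WT 5 against 219 to 244. The mean log2 value of the cholesterol synthesis genes was 9.36 in WT 6 against 9.30 to 9.31. That of the Langerhans and dendritic cell markers was 8.26 in WT 5 against 8.44 to 8.46.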

How the results depend on the processing

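The number of genes called higher, 2, was 6 with DESeq2 on recovered reads (44 lower instead of 0), 1 with the 7 libraries alone, 0 with the skeletal muscle covariate and 0 in male libraries alone, an alternative chosen after seeing the data. Limma then had 415 and 1008 genes at an unadjusted p below 0.05. Leaving out 1 library gave 0 (without N-IKKa 7, with 899 at an unadjusted p below 0.05) to 2 higher and 0 lower. DESeq2 gave no adjusted p for 6022 genes, Cdh9 among them (unadjusted p = 1.87e-27); its highest-ranked call was Sphkap (adjusted p = 3.54e-11). Cdh9 lost its call with the muscle covariate (2.89) and in male libraries (3.52), and ran from 2.97 to 3.37 without 1 library. The edgeR adjusted p was 0.000351 for Cdh9 and 0.0105 for Sphkap. Chuk turned from 0.02 to −0.052 with the muscle covariate and −0.0499 in males, and ran from −0.0486 to 0.14 without 1 library (negative without WT 3, N-IKKa 10 or N-IKKa 12). The skeletal muscle median ran from −0.91 to −0.70 over 29 alternatives without its own covariate, and was 0.05 with it, which that covariate sets by construction. The count of 2 genes in the high libraries ran from 0 (without N-IKKa 9) to 789 (without WT 4) when 1 library was left out; where 1 WT library remained, it was assumed to vary like the others. Without 1 library, medians of other lists also moved by over 1.5 times: brown adipocyte −0.34 (without N-IKKa 7) to 0.03 (N-IKKa 10), circadian 0.03 (N-IKKa 12) to 0.32 (WT 3), neutrophil 0.01 (WT 3) to 0.64 (N-IKKa 12), T cell 0.12 (WT 5) to 0.45 (N-IKKa 12), Wnt target 0.10 (WT 5) to 0.29 (N-IKKa 10), Langerhans and dendritic cell 0.09 (WT 5) to 0.26 (WT 2). The cause of these changes was not tested. No scaling moved the median of all genes by over 0.1. No paired analysis was possible because the groups share no replicate numbers. With 3 libraries against 4, small differences were not detectable.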

Other observations

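Bach2, a transcriptional repressor of lymphocytes that is also made in other cells, was the other gene called in the high hair keratin libraries, where it averaged 2064 normalized counts in N-IKKa and 1013 in WT. Its log2 fold change there was 1.01 (SE 0.15) with a limma adjusted p of 0.0367. In the low libraries Bach2 averaged 869 and 823 (0.08, SE 0.12), and the difference between the classes was −0.93 (SE 0.20, unadjusted p = 0.000211, adjusted p = 0.435). Cyp27b1, the enzyme that activates vitamin D, averaged 31.9 ± 9.64 (SD, n = 3) in the low N-IKKa libraries and 9.35 ± 3.01 (n = 4) in WT without overlap (1.67, SE 0.40, limma adjusted p = 0.52), and 116 in C-IKKa. Its WT mean lay below the filter value of 10, and 2.96% of all genes tested were higher in N-IKKa without overlap. Both genes were chosen after their values were seen.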
